A study of Mus musculus with 6 samples.

Results

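Globin and erythroid genes were examined in the Achilles tendon of 4-week-old mice. The 9 genes were Hba-a1 and Hba-a2 (alpha globin), Hbb-bs and Hbb-bt (beta globin), Alas2, Slc4a1, Klf1, Epb42 and Bpgm. They were found by symbol among the 54189 features of the RNA-seq count table, and each of the 9 has a row. Total RNA came from 3 genotypes with 1 library each. Control mice carried floxed Dicer alleles without Cre (Dicer f/f), ScxHt mice carried Cre knocked into a Scx allele with wild-type Dicer (ScxCre/+ Knock In:Dicer +/+), and Dicer cKO mice carried both (ScxCre/+ Knock In:Dicer f/f). Control and Dicer cKO thus share the floxed alleles, and ScxHt and Dicer cKO share the Cre allele. Scx drives Cre in tendon and ligament cells, so the deletion is not aimed at blood cells. With 1 library per genotype, every difference below is a difference between libraries, with no check across mice and no p-value.

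The libraries held 16244232 (Control), 15769301 (ScxHt) and 14959399 (Dicer cKO) counted reads. Dicer1, the targeted gene, had 1919, 2025 and 1621 reads in the same order, and its Dicer cKO/Control ratio was 0.877. The count covers the whole gene, including exons outside the floxed part, and non-tendon cells. Ratios are of read counts divided by DESeq2 size factors of the pair of libraries compared, and the genotype named first is the numerator. Each has a 95% interval (exact Clopper-Pearson) that covers counting error only. A gene was analysed where its mean normalised count over the pair (baseMean) was above 50, and was called lower below a ratio of 0.60 and higher above an upper threshold of 1.7 (given to 2 digits).

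Red blood cells are packed with haemoglobin, a tetramer of alpha and beta globin chains that each hold a heme. Alas2 makes the first, rate-limiting intermediate of heme in erythroid cells, Bpgm sets the oxygen affinity of haemoglobin through 2,3-bisphosphoglycerate, Slc4a1 (band 3) and Epb42 (protein 4.2) anchor the red cell skeleton to its membrane, and Klf1 is the transcription factor that binds CACCC boxes of erythroid promoters. Reticulocytes keep globin mRNA after the nucleus is lost, whereas Klf1 and other nuclear regulators belong to nucleated precursors of the marrow, spleen and fetal liver. In bulk tissue, a change in the number of blood cells and a change in the RNA of each cell cannot be told apart.

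The alpha globin genes lie on chromosome 11 (GRCm38, plus strand), Hba-a1 at chr11:32283511-32284465 and Hba-a2 at chr11:32296489-32297298, with 12023 bases between them. The adult beta globin genes lie on chromosome 7 (minus strand), Hbb-bs at chr7:103826534-103828096 and Hbb-bt at chr7:103812524-103813996, with 12537 bases between them. Within each pair the annotated coding sequences are nearly the same. Hba-a1 and Hba-a2 differ at 1 of 426 bases, and Hbb-bs and Hbb-bt at 1 of 441. Of all 100-base windows of the Hba-a1 transcript, 56.5% also occur in Hba-a2, and 62.6% of those of Hbb-bs occur in Hbb-bt. Reads from one copy can therefore be assigned to the other, and the split within a pair is uncertain. The sums of the pairs do not depend on that split, since no 100-base window of Hba-a1 occurs in Hbb-bs, but reads that fit both copies may be missing from the counts.

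RefSeq promoter sequences (GRCm38.p6) were at hand for 8 of the 9 genes. The entries of Hba-a1 and Hba-a2 share a run of 297 bases, so the stretch in front of Hba-a2 (chr11:32296392-32296488, plus strand) stands for both. For Hbb-bs the box region is chr7:103827997-103828026 and the TATA region chr7:103827944-103827968, and for Hbb-bt they are chr7:103813992-103814021 and chr7:103813939-103813963, all on the minus strand. The RefSeq starts of the beta genes lie downstream of the GENCODE starts, so these regions lie before the RefSeq start and, apart from part of the Hbb-bt box region, inside the GENCODE interval given above. They are shown because these 4 genes were all highest in Dicer cKO. Capitals mark CACCC (the box bound by Klf1), CCAAT and TATAA, and ATTGG where CCAAT is read on the opposite strand.
Hba-a2: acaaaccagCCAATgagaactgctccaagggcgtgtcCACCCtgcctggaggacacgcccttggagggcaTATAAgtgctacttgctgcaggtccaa
Hbb-bs box region: tagagccaCACCCtggtaagggCCAATctg
Hbb-bt box region: gcagggtaaCACCCtggcATTGGCCAATct
Hbb-bs TATA region: agggcagagcaTATAAggtgaggta
Hbb-bt TATA region: cagcATTGGgtaTATAAagctgagc

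On either strand of the 250 bases before the start, each of the 4 globin genes held all 3 motifs. In the stretch of Hba-a2 shown, CCAAT lies farther from the start than CACCC, and in the box regions of the beta genes CACCC lies farther. Each alpha gene holds another CACCC farther from the start than the stretch shown. The motifs are short and common: of 32851 promoters of the same length, 52.01% held CACCC, 33.8% CCAAT and 22.8% TATAA. The longer CCACACCC occurred in Hbb-bs, the only one of the 8 genes to hold it, and in 3.20% of all promoters. AGATAA, a motif read by Gata1 and its relatives, occurred in 3 of the 8 genes, 1 of them a globin gene, and in 9.99% of all promoters. These matches describe the letters and are no evidence of binding.

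Alpha globin transcripts were the most abundant of the 9 genes in every library and were higher in Dicer cKO than in either of the other genotypes. Hba-a1 had 1316 reads in Control, 1339 in ScxHt and 3331 in Dicer cKO, which per transcript length was 99.8, 105 and 274 RPKM (reads scaled to transcript length and library size). Hba-a2 had 938, 968 and 2040 reads, or 86.6, 92.0 and 204 RPKM. The Control and ScxHt libraries lay close together for both genes and Dicer cKO lay apart. The Dicer cKO/Control ratio was 2.63 (2.47 to 2.80) for Hba-a1 and 2.26 (2.09 to 2.44) for Hba-a2. Against ScxHt the ratios were 2.74 (2.57 to 2.92) and 2.32 (2.15 to 2.51). Between ScxHt and Control the values were 0.975 (0.903 to 1.05) and 0.989 (0.903 to 1.08), and both intervals contained 1.

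Beta globin transcripts were also highest in Dicer cKO, and their ratios between ScxHt and Control had intervals below 1, which those of alpha globin did not. Hbb-bs had 376 reads in Control, 311 in ScxHt and 657 in Dicer cKO, or 30.2, 25.6 and 57.2 RPKM. Hbb-bt had 253, 196 and 451 reads, or 22.2, 17.6 and 42.9 RPKM. Both genes had the order ScxHt, Control, Dicer cKO. The Dicer cKO/Control ratio was 1.81 (1.60 to 2.07) for Hbb-bs and 1.85 (1.58 to 2.17) for Hbb-bt. Each passed the upper threshold, but the lower end of each interval did not. Against ScxHt the ratios were larger, 2.33 (2.03 to 2.67) and 2.54 (2.14 to 3.01). In ScxHt/Control they were 0.793 (0.680 to 0.924) and 0.742 (0.613 to 0.898), below 1 over the whole interval without passing 0.60.

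**Figure D1:**
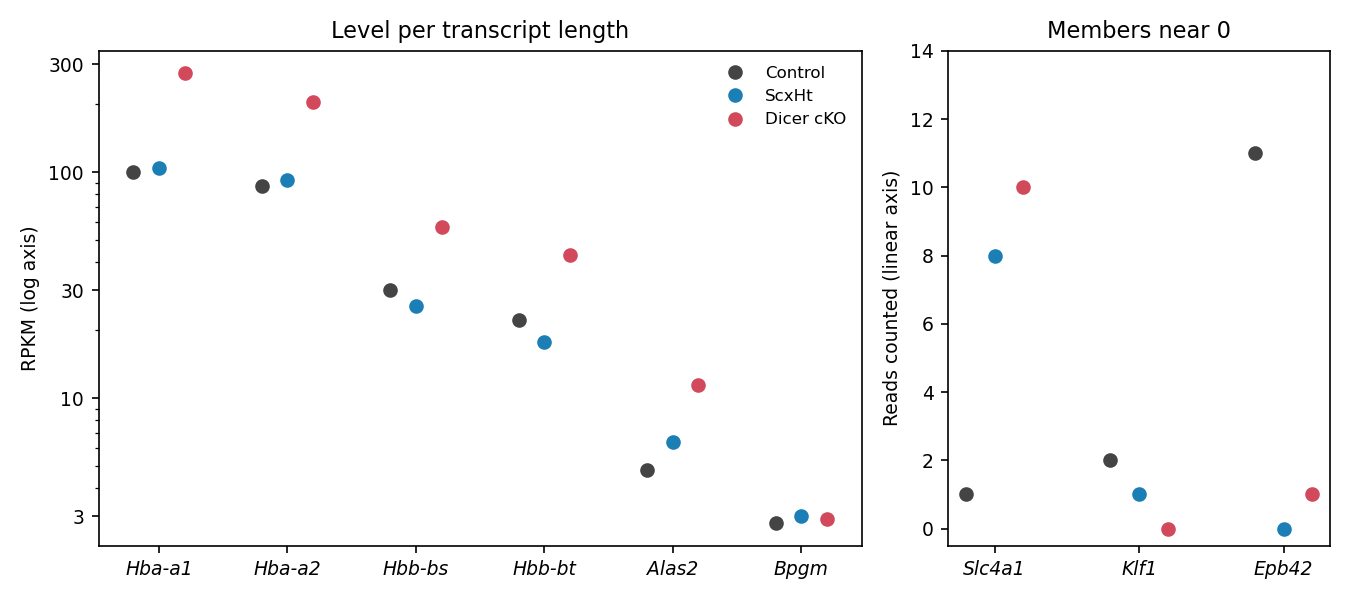
Levels of the 9 genes in the 3 libraries (Control grey, ScxHt blue, Dicer cKO red). Left, RPKM on a log axis for the 6 genes with a baseMean above 50. Right, reads counted on a linear axis for the 3 genes near 0. Hba-a1 in Dicer cKO is the highest point at 274 RPKM, while the 3 points of Bpgm lie between 2.80 and 3.005 RPKM.

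Summed over the 4 globin genes, 2883 reads were counted in Control, 2814 in ScxHt and 6479 in Dicer cKO. These were 0.0177% (0.0171 to 0.0184), 0.0178% (0.0172 to 0.0185) and 0.0433% (0.0423 to 0.0444) of all counted reads. Globin mRNA was thus a small part of each library. The summed ratio was 2.33 (2.23 to 2.44) between Dicer cKO and Control, 2.54 (2.43 to 2.65) between Dicer cKO and ScxHt and 0.935 (0.888 to 0.986) between ScxHt and Control. With libraries scaled by their total counts the last ratio was 1.01, so whether ScxHt or Control had the lower globin sum depended on the scaling.

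The balance of alpha to beta globin reads differed between the libraries and does not depend on any scaling. There were 3.58 (3.28 to 3.92) alpha reads for each beta read in Control, 4.55 (4.13 to 5.02) in ScxHt and 4.85 (4.54 to 5.18) in Dicer cKO. Both libraries with the ScxCre allele lay above Control. The alpha ratio divided by the beta ratio was 1.35 (1.21 to 1.51) between Dicer cKO and Control and 1.27 (1.11 to 1.45) between ScxHt and Control. For Dicer cKO/ScxHt it was 1.07 (0.947 to 1.20), an interval that contains 1. Within the alpha pair, Hba-a1 took 58.4% (56.3 to 60.4) of the reads in Control, 58.0% (56.0 to 60.1) in ScxHt and 62.0% (60.7 to 63.3) in Dicer cKO. Within the beta pair, Hbb-bs took 59.8% (55.8 to 63.6), 61.3% (56.9 to 65.6) and 59.3% (56.3 to 62.2), and the 3 intervals overlapped. The Hba-a1 share is subject to the uncertain split of reads between the copies.

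**Figure D2:**
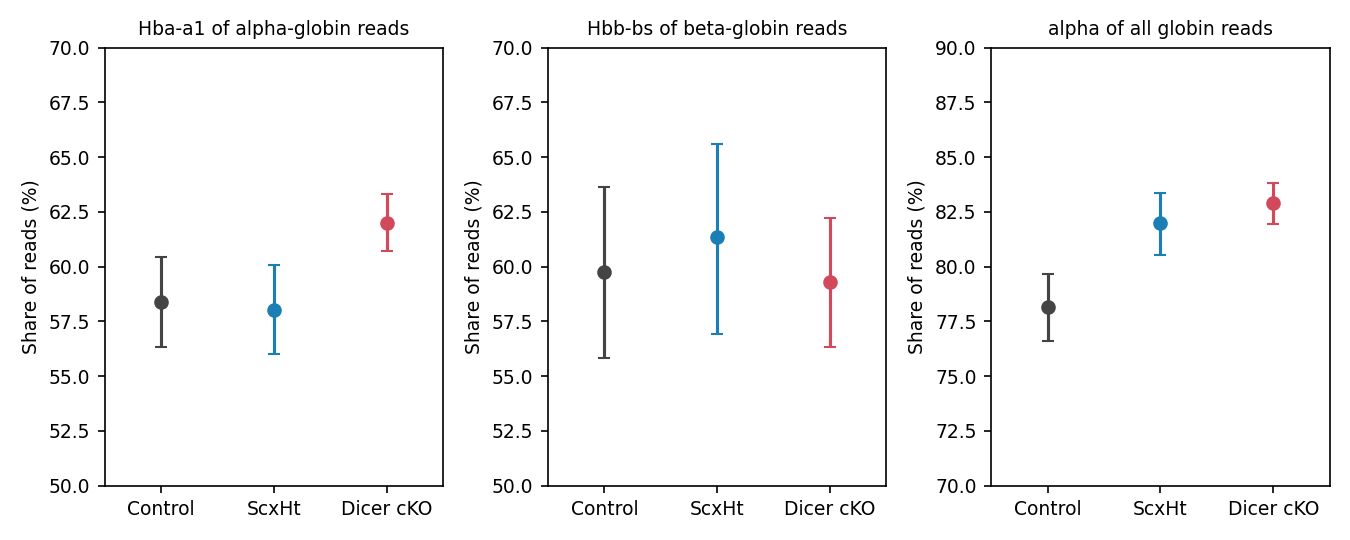
Shares of globin reads in each library with 95% exact binomial intervals, which cover counting error only. From left to right, Hba-a1 among alpha globin reads, Hbb-bs among beta globin reads and alpha among all globin reads, in percent on axes that do not start at 0. The Hba-a1 share is 62.0% in Dicer cKO against 58.4% in Control, and the alpha share is 78.2% in Control against 82.0% and 82.9% in ScxHt and Dicer cKO.

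Alas2, which lies at chrX:150547375-150570638 on the plus strand, was also highest in Dicer cKO. It had 188 reads in Control, 243 in ScxHt and 411 in Dicer cKO, or 4.82, 6.41 and 11.4 RPKM. Its ScxHt value was above Control, with a ratio of 1.24 (1.02 to 1.51), whereas the beta globins were below Control there. The ratio was 2.27 (1.91 to 2.71) between Dicer cKO and Control and 1.86 (1.59 to 2.19) between Dicer cKO and ScxHt, where the lower end of the interval did not pass the upper threshold. Between the 3 libraries the globins and Alas2 did not move in one proportion. Summed globins had 15.3 (13.2 to 17.9) reads for each Alas2 read in Control, 11.6 (10.2 to 13.3) in ScxHt and 15.8 (14.3 to 17.5) in Dicer cKO. The beta globin ratio divided by the Alas2 ratio was 0.624 (0.495 to 0.785) between ScxHt and Control. Apex2, a DNA repair nuclease gene on the opposite strand, spans the whole of Alas2, and 311 of the 2403 exon bases of Alas2 (12.9%) are also exon bases of Apex2. Whether reads were counted by strand is not given in the sources used here, so part of the Alas2 count may belong to Apex2. Apex2 itself had 488, 469 and 497 reads, with no library apart from the others.

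Bpgm (chr6:34476207-34505613, plus strand) did not follow the globins. It had 163 reads in Control, 170 in ScxHt and 156 in Dicer cKO, or 2.80, 3.005 and 2.91 RPKM. The ratios were 0.994 (0.793 to 1.25) between Dicer cKO and Control, 0.999 (0.801 to 1.25) between ScxHt and Control and 1.01 (0.808 to 1.26) between Dicer cKO and ScxHt. A difference within these intervals was not detectable at this depth. The alpha globin ratio divided by the Bpgm ratio was 2.49 (1.98 to 3.14) between Dicer cKO and Control.

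Slc4a1, Epb42 and Klf1 were near 0 in every library and did not reach the minimum for analysis. Slc4a1 (chr11:102348824-102366203, minus strand) had 1 read in Control, 8 in ScxHt and 10 in Dicer cKO. With a single Control read its Dicer cKO/Control ratio of 10.4 had an interval of 1.48 to 451. Its Dicer cKO/ScxHt ratio was 1.38 (0.489 to 4.02). Epb42 (chr2:121017891-121037072, minus strand) went the other way, with 11 reads in Control, 0 in ScxHt and 1 in Dicer cKO. Its Dicer cKO/Control ratio was 0.0944 (0.00219 to 0.650). With the ScxHt count set to the floor of 3 reads, it was 3.83-fold lower in ScxHt than in Control. That value takes the Control count as exact, and the counting interval of the ScxHt/Control ratio reached up to 0.382. The protein products of Slc4a1 and Epb42 bind each other in the red cell membrane, yet their few reads fell in different libraries. Klf1 (chr8:84901928-84905291, plus strand) had 2 reads in Control, 1 in ScxHt and 0 in Dicer cKO, which is at or under the floor throughout, and no ratio is given.

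**Figure D3:**
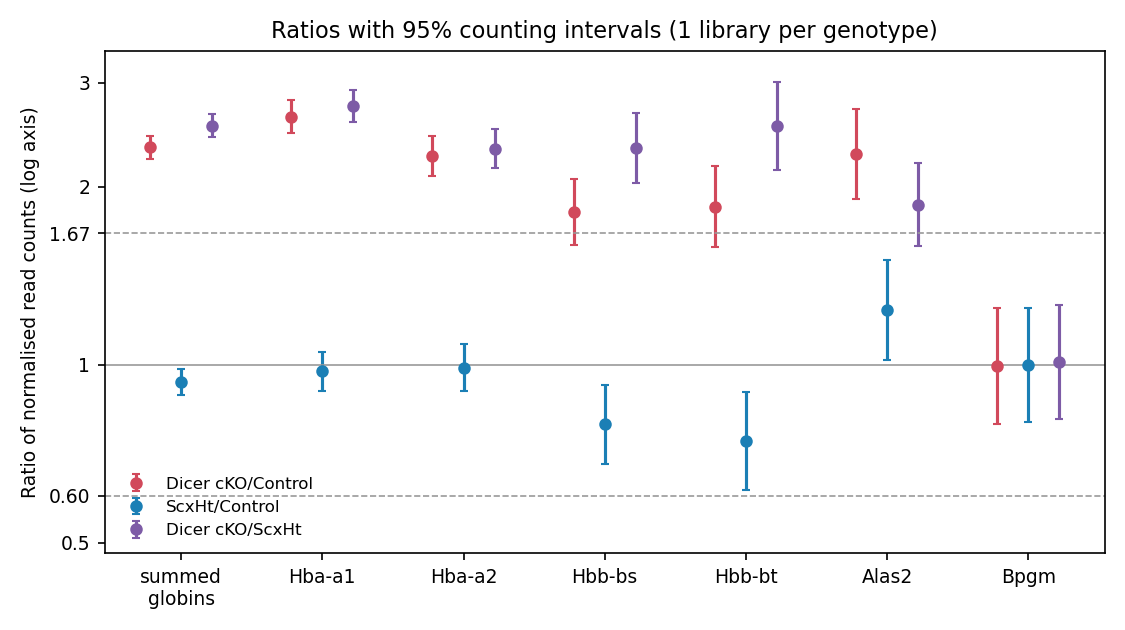
Ratios of normalised read counts for the summed globins and the 6 analysed genes, with 95% counting intervals, on a log axis. Dashed lines mark the thresholds. In both comparisons with Dicer cKO the 4 globins and Alas2 lie above the upper threshold, Bpgm lies on 1, and in ScxHt/Control every point lies between the dashed lines.

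Of the 9 genes, 6 were thus analysed, and each of these had at least 156 reads in every library. Of these 6, 5 were called higher and 0 lower in Dicer cKO/Control. Of all 13504 analysed genes, 3.87% were called higher and 4.18% lower. In Dicer cKO/ScxHt 5 were called higher and 0 lower, against 7.67% and 5.68% of 13555 genes. The 4 globin genes are near-identical pairs, so their calls are not separate. With each pair summed, 3 of 4 were higher in both comparisons with Dicer cKO. In ScxHt/Control 0 were called in either direction, against 3.05% higher and 4.73% lower of 13563 genes. Scaling by total counts moved the balance of all calls, with 60.4% of them higher instead of 48.1% in Dicer cKO/Control, 58.4% instead of 39.2% in ScxHt/Control and 48.4% instead of 57.4% in Dicer cKO/ScxHt. The calls of the 9 genes did not change with it. Under total counts the median log2 ratio of all genes in ScxHt/Control was 0.12, against 0.02 by size factors. The study's own list of genes raised in Dicer cKO, made from these libraries, holds the 4 globin genes and Alas2, so that list is not independent evidence. The 3 comparisons share libraries.

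Among all analysed genes, few had a larger Dicer cKO/Control ratio. For Hba-a1 it was 69 of 13504 genes (0.511%), for Alas2 123 (0.911%), for Hba-a2 125 (0.926%), for Hbb-bt 308 (2.28%) and for Hbb-bs 345 (2.55%). Bpgm lay near the middle, with 46.8% of genes above it. In Dicer cKO/ScxHt, a wider distribution, 230 genes (1.70%) lay above Hba-a1 and 750 (5.53%) above Alas2. By level, Hba-a1 was the feature with rank 234 in Control, 255 in ScxHt and 101 in Dicer cKO when all features were ordered by RPKM.

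**Figure D4:**
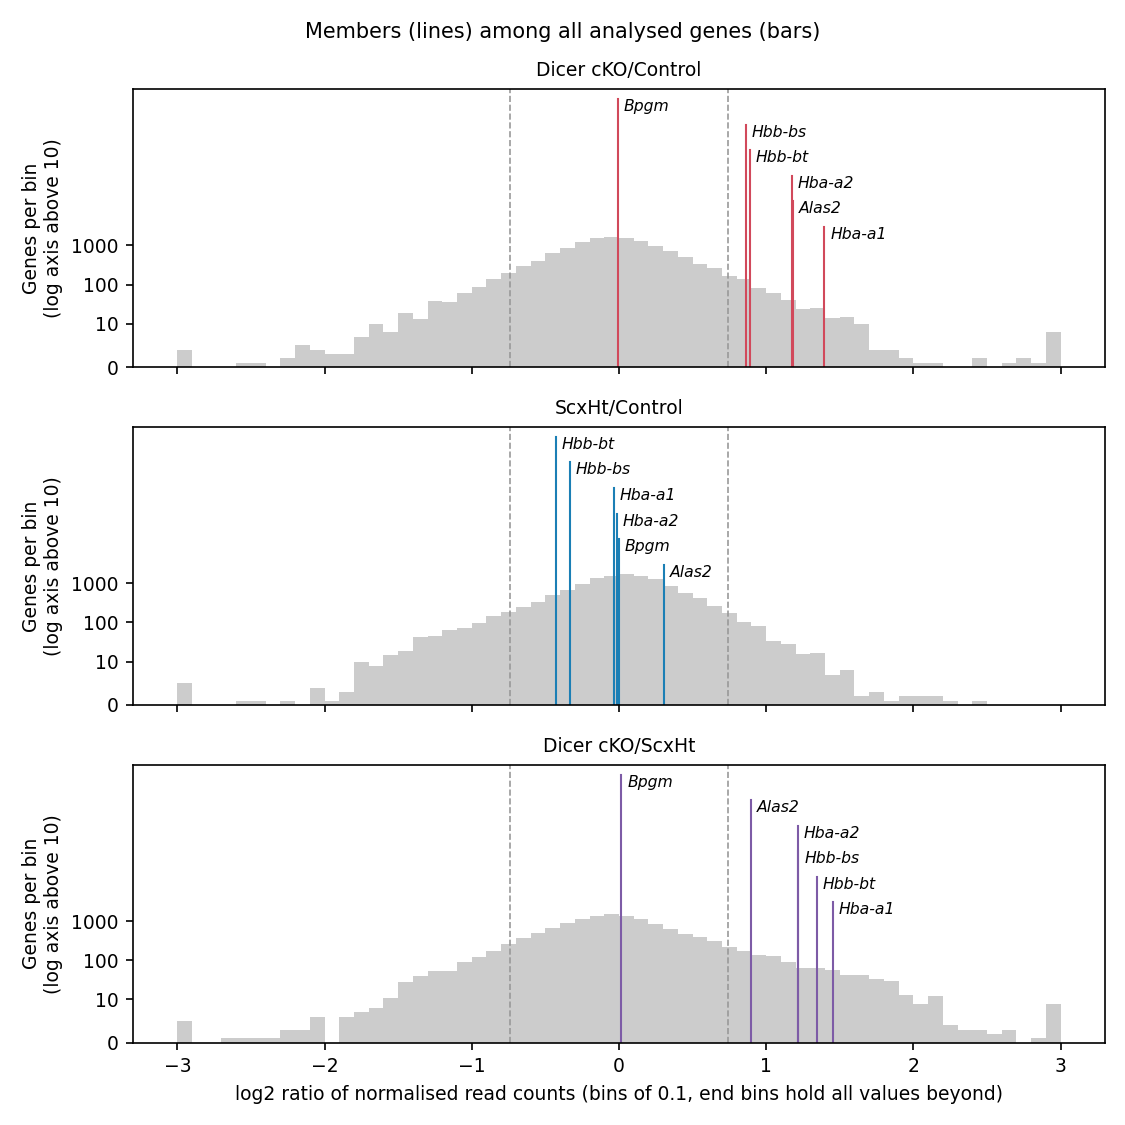
Distribution of the log2 ratio over all analysed genes (grey bars, genes per bin, log axis above 10) with the 6 analysed globin and erythroid genes as lines, in the 3 comparisons. Dashed lines mark the thresholds. The 5 genes called higher lie on the right shoulder in both comparisons with Dicer cKO, and in ScxHt/Control they lie inside the body of the distribution.

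The remaining genes of heme and red cell biology did not follow the globins as lists. The embryonic globins and their relatives Hba-x, Hbb-y, Hbb-bh0, Hbb-bh1, Hbb-bh2 and Hbb-bh3 and the theta globin Hbq1a had 0 reads in every library of the count table. A count of 0 allows up to 0.185 CPM (counts divided by the library total and multiplied by 1e6) in Control, 0.190 in ScxHt and 0.201 in Dicer cKO. Hbq1b had 1 read, in Dicer cKO. Mb, the myoglobin of muscle, had 10395, 4471 and 14758 reads, with a ScxHt/Control ratio of 0.412 and a Dicer cKO/Control ratio of 1.47. Cygb, the cytoglobin of fibroblasts, was between 391 and 440 reads.

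Of 11 heme synthesis genes other than Alas2, 11 were analysed and 0 were called in Dicer cKO/Control and in ScxHt/Control. Their median log2 ratio was 0.01 in Dicer cKO/Control, where all genes had -0.03. Alas1, the form of the first enzyme used in other tissues, had 1281, 1431 and 1199 reads, and Fech, which inserts the iron, had 547, 717 and 637. Only Cpox, which acts late in the pathway, passed a threshold in any comparison, with a Dicer cKO/ScxHt ratio of 0.594 (0.493 to 0.715), and under edgeR TMM scaling 0 of the 11 were called there.

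Of 10 genes of iron uptake and storage, all analysed, 1 was higher in Dicer cKO/Control, 1 in ScxHt/Control and 1 in Dicer cKO/ScxHt, and 0 were lower. Hmox1, the heme-degrading enzyme that is induced by free heme and oxidative stress, had 95 reads in Control, 300 in ScxHt and 232 in Dicer cKO. Its ratios to Control were 3.03 (2.40 to 3.85) in ScxHt and 2.54 (1.99 to 3.26) in Dicer cKO, so Control stood apart from both ScxCre libraries. Tfrc, the transferrin receptor, had 2164, 1393 and 2697 reads. It was not past a threshold in either comparison with Control (0.617 for ScxHt, 1.29 for Dicer cKO) and was higher in Dicer cKO than in ScxHt, at 2.13 (1.999 to 2.28).

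The list of 17 red cell membrane genes had 10 members analysed. In Dicer cKO/Control 1 was higher and 0 were lower, and in ScxHt/Control 1 was higher and 2 were lower. In Dicer cKO/ScxHt 3 were higher and 0 lower. Sptb, a beta spectrin used by red cells and muscle, had 1384, 712 and 2024 reads, with ratios of 0.493 between ScxHt and Control and 3.13 between Dicer cKO and ScxHt. Ank1, an ankyrin of both tissues, had 968, 713 and 1312 reads and a Dicer cKO/ScxHt ratio of 2.03. Xk, a membrane transporter homologue of red cells and muscle, was lower in ScxHt/Control at 0.390 with 81, 33 and 75 reads. Rhag and Kel, both red cell membrane proteins, had 0 reads in all libraries.

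Transcription factors of erythroid cells ran from 0 to 3217 reads. Foxo3 and Ldb1, which many cell types express, had 2754, 3217 and 1792 and 659, 760 and 604 reads, whereas Gata1, the master regulator of the lineage, had 0 in every library. Of the 10 factors, 5 were analysed in Dicer cKO/Control and 6 in the other comparisons, and 1 passed a threshold. This was Bcl11a, a repressor of fetal globin genes that other cells also express, with 58, 93 and 25 reads and a Dicer cKO/ScxHt ratio of 0.296 (0.182 to 0.465). Of 14 late erythroid genes in the table, 8 were analysed and 0 were called in any comparison. Car1, a red cell carbonic anhydrase, had 8 reads in Control, 1 in ScxHt and 0 in Dicer cKO, and was thus highest in Control, where no globin gene was highest. Car2 had 7, 9 and 24 reads, under the minimum. The table was searched for Ahsp, the alpha globin chaperone, and no row carried that symbol.

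The defining markers therefore did not move as a set. Hba-a1, Hbb-bs and Alas2 were called higher in Dicer cKO/Control, and Gata1, Klf1 and Slc4a1 were at or near 0. Whether the globin reads come from circulating cells or from erythroid cells in adjoining tissue was not tested.

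Markers of other cells were read beside these values. Neutrophil genes summed to 47, 63 and 32 reads in Control, ScxHt and Dicer cKO over 14 genes, 7 of them at 0 in every library, among them S100a9, Ngp and Camp. Lymphocyte genes summed to 31, 27 and 19 reads over 12 genes, with Cd3d and Cd3g at 0, and platelet genes to 244, 304 and 193 reads over 10 genes, with Ppbp at 0. None of the 3 sums was highest in Dicer cKO, but single genes carried much of them. Lcn2 gave 22, 40 and 22 of the neutrophil reads, and Cd2 gave 15, 16 and 8 of the lymphocyte reads. Within the platelet list, Pf4 had 39, 89 and 18 reads, a ScxHt/Control ratio of 2.19 and a Dicer cKO/ScxHt ratio of 0.223. The 7 genes of the haematopoietic progenitor list summed to 346, 401 and 284 CPM. Most of that sum was Cd34 (168, 221 and 159 CPM) and Runx1 (119, 110 and 75 CPM), so it is no measure of blood content. Of the 6 analysed, 2 were lower in Dicer cKO/ScxHt, Ptprc at 0.549 and Spn at 0.497. Macrophage and osteoclast genes summed to 339, 592 and 289 CPM. There 4 of 8 were higher in ScxHt/Control, from Mrc1 at 1.68 to Cd163 at 1.87, and 6 of 8 were lower in Dicer cKO/ScxHt, from Cd163 at 0.395 to Ctsk at 0.534. Among the other platelet genes, Gp1ba (0, 1 and 8 reads), Gp5 (1, 3 and 6) and Gp9 (1, 0 and 4) had few reads and were highest in Dicer cKO, while Gp1bb (145, 165 and 109), which makes up most of the sum, was lowest there.

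Endothelium, skeletal muscle and tendon moved between the same libraries. The 10 endothelial genes summed to 761, 559 and 872 CPM, the order of the beta globins. Of them 0 were called against Control, and Cdh5 (1.79) and Kdr (1.77) were higher in Dicer cKO/ScxHt. All 10 had an interval below 1 in ScxHt/Control and above 1 in Dicer cKO/ScxHt. In Dicer cKO/Control 5 intervals lay above 1 and 1 below. The 15 muscle genes summed to 63069, 35760 and 109458 CPM, again the order of the beta globins. All 15 had a Dicer cKO/Control interval above 1 and 10 were called higher, from Atp2a1 at 1.79 to Myh4 at 6.37. In ScxHt/Control 3 were higher and 6 lower, from Myh2 at 0.419 to Myh4 at 4.70, and in Dicer cKO/ScxHt 13 were higher, from Actn3 at 1.75 to Myh2 at 4.74. Mitochondrially encoded genes took 3.45%, 2.12% and 4.43% of counted reads. The 14 tendon genes went the other way in Dicer cKO/Control, with 8 lower, from Egr1 at 0.362 to Col1a2 at 0.574. In ScxHt/Control Bgn was higher at 1.72 and Egr1 lower at 0.274, and in Dicer cKO/ScxHt 9 were lower, from Comp at 0.354 to Scx at 0.596. The muscle sum and the globin reads were both highest in Dicer cKO. Ttn alone gave 42399, 20867 and 70994 CPM of the muscle sum. In ScxHt/Control the muscle genes lay on both sides of the alpha globin ratio of 0.981 (0.925 to 1.04), with Ttn at 0.458, Tnnc2 at 0.904 and Mylpf at 1.12. The part of muscle, vessels or blood left in the dissected tendon in the globin difference was not tested.

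**Figure D5:**
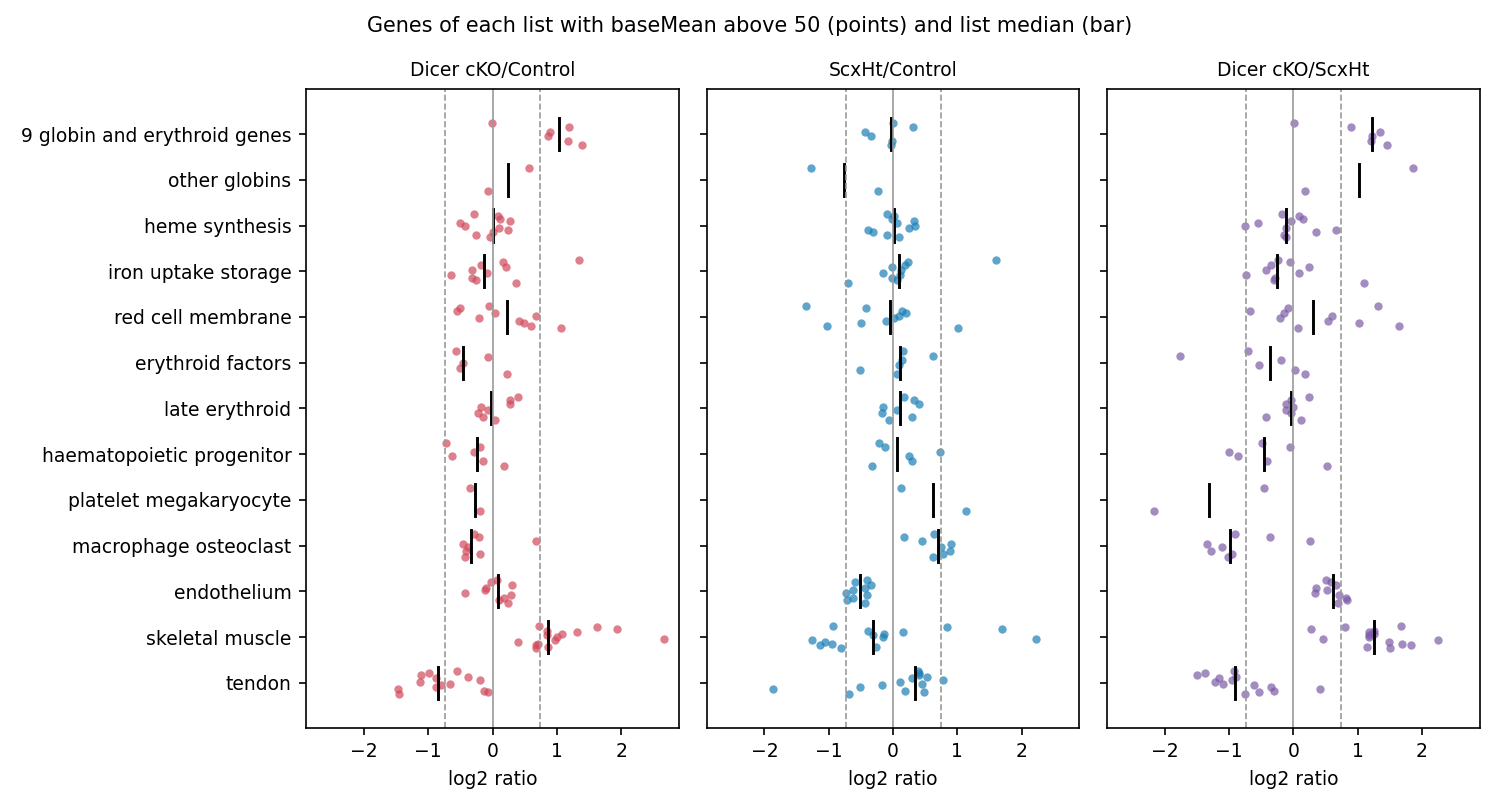
The log2 ratio of each gene with a baseMean above 50 (points) and the list median (black bar) in 13 gene lists, for the 3 comparisons. Dashed lines mark the thresholds. The globin and erythroid genes sit to the right in both comparisons with Dicer cKO, as do the muscle genes, while heme synthesis and late erythroid genes centre near 0 and tendon genes sit to the left.

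Genes were also ordered by how close their pair of log2 ratios (ScxHt/Control and Dicer cKO/Control) lay to that of the summed globins, over the 3 libraries. Of 13392 genes compared, 15 lay within a distance of 0.2 log2 units. The nearest was Drp2, a dystrophin relative of Schwann cells and brain, with 394, 377 and 871 reads at a distance of 0.04. It was followed by Mtrf1 (a mitochondrial release factor, 55, 51 and 125 reads), RP24-475O6.1, P2ry1 (an ADP receptor of platelets and other cells, 37, 37 and 89 reads), Fam179a, Mst1r, Mafa, Gemin6, Clec1a and Tnnc2. Tnnc2, the fast muscle troponin C, had 1807, 1704 and 3677 reads at a distance of 0.15. None of these 10 genes is on the erythroid lists, and 1, Tnnc2, is on the muscle list. With 3 libraries this nearness is a description.

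Genes next to the globin and Alas2 loci were looked at after their values were seen. Nprl3, whose introns hold the alpha globin enhancers, had 343, 261 and 234 reads and a Dicer cKO/Control ratio of 0.708, opposite to Hba-a1 and Hba-a2 in that comparison. Its ratio was also below 1 in ScxHt/Control, at 0.729 (0.618 to 0.859), and was 0.988 (0.824 to 1.18) in Dicer cKO/ScxHt. Mpg, which lies within the span of Nprl3 on the opposite strand, had 109, 175 and 121 reads and a Dicer cKO/Control ratio of 1.15. Pfkfb1, a neighbour of Alas2, had 267, 179 and 279 reads, with a ratio of 1.09 between Dicer cKO and Control and of 1.72 (1.42 to 2.08) between Dicer cKO and ScxHt, past the upper threshold as Alas2 was.

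The erythroid microRNA pair miR-144 and miR-451a, transcribed together under Gata1, was measured in the small RNA libraries of the same genotypes. The hairpins lie 99 bases apart on chromosome 11. Mature sequences are from RefSeq (GRCm38.p6), with the seed (bases 2 to 8) in capitals, and the seeds differ between all 3. They are shown because miR-451a is known to mature through Ago2 without Dicer, in contrast to miR-144.
mmu-miR-451a: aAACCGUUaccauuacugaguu
mmu-miR-144-3p: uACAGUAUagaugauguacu
mmu-miR-144-5p: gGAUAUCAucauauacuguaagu

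Counts were given per gene, with the arms of miR-144 together. Mir451a had 559 reads in Control, 394 in ScxHt and 586 in Dicer cKO, with ratios of 1.20 (1.07 to 1.35) between Dicer cKO and Control, 0.794 (0.696 to 0.905) between ScxHt and Control and 1.49 (1.31 to 1.69) between Dicer cKO and ScxHt. Mir144 had 187, 164 and 223 reads, with ratios of 1.37 (1.12 to 1.669), 0.988 (0.796 to 1.23) and 1.36 (1.11 to 1.674). Neither passed a threshold, and in Dicer cKO/Control both ratios were below that of the summed globins. The other scalings were not applied to the microRNA ratios. By total counts the size factors of Control and Dicer cKO were 1.14 and 0.876 instead of 1.07 and 0.934, so both ratios would be higher. The share of all small RNA features past the thresholds was not counted. Mir486, shared by erythroid cells and muscle, had 13513, 7237 and 10076 reads and ratios of 0.855, 0.603 and 1.39. Across the 9 names of this list the Dicer cKO/Control ratios ran from 0.809 (Mir16-2) to 1.37 (Mir144).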

How the data were processed

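RNA-seq and small RNA-seq libraries (1 per genotype and assay) came from Achilles tendon RNA of 4-week-old mice. Per the study's methods and the submitters' processing notes, trimmed paired-end reads were mapped to GRCm38/mm10 with TopHat and Bowtie2 and counted per gene with HTSeq, with differential expression by DESeq2. Versions, strand setting and handling of reads that fit several genes are not given in the sources used here. The deposited count tables hold raw counts per gene. The deposited RPKM values are scaled by the authors to transcript length and library size. The length implied by RPKM and count was the same in all 3 libraries for Alas2 and Bpgm and varied slightly for the globin genes (811.9 to 812.2 bases for Hba-a1), so the globin values of the 2 tables do not rest on exactly the same number of reads.

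Counts were divided by DESeq2 (1.42.0) size factors of each pair of libraries, over the table as deposited with its 463 repeated lines. The minimum baseMean was 50 for RNA-seq and 15 for small RNA-seq, and the thresholds were 1.67 and 0.60. With 1 library per genotype no test was possible. Exact Clopper-Pearson intervals (95%) and the floor of 3 counts cover counting error only, since reads are not independent molecules. The calculation of ratios and intervals was checked on simulated Poisson counts with known folds. Such counts hold no spread between mice, so the check says nothing on how far the intervals suit these libraries. Annotation was GENCODE vM21 (GRCm38). Alternatives were edgeR (4.0.16) TMM, total counts with and without features above 1%, size factors over 3 libraries or without muscle and mitochondrial genes, a pseudocount of 1, minimum baseMean of 10, 200 or none, ratios of 2 and 0.5, whole intervals, and summed paralogs.

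The 9 genes and the 16 gene lists were chosen with earlier results of these data known. Named beyond the 9 were the erythroid list genes past a threshold in any comparison, the defining genes Gata1, Ahsp, Car1 and Tfrc, the highest and lowest called gene of each other list and the 10 genes nearest to the summed globins. Some genes of these lists are not reported here.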

Additional observations from a re-analysis of the deposited data

How the results depend on the processing

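Under the 5 other scalings none of the 6 analysed genes left its main counting interval in any of the 3 comparisons, and the numbers of genes called stayed at 5, 0 and 5. The summed globin ratio moved out of its interval under total counts, to 2.44 between Dicer cKO and Control and 1.01 between ScxHt and Control. Alpha globins alone gave 2.47 between Dicer cKO and Control, and beta globins alone gave 1.83, 0.772 between ScxHt and Control and 2.41 between Dicer cKO and ScxHt. With no minimum baseMean 8 of the 9 genes passed a threshold in Dicer cKO/Control (6 higher, 2 lower) and 3 in ScxHt/Control, where the added Slc4a1, Klf1 and Epb42 have at most 11 reads in any library. Ratios of 2 and 0.5, or whole intervals past the thresholds, left 3 in Dicer cKO/Control (Hba-a1, Hba-a2 and Alas2), without the beta globins, and 4 in Dicer cKO/ScxHt (the globins), without Alas2. Summed paralogs left 3 in each comparison with Dicer cKO, since 4 globin genes became 2. No paired analysis was possible because each genotype has 1 library, and for the same reason no library could be left out. Depth limits Slc4a1, Klf1, Epb42 and Car1, whose counts of at most 11 reads in any library leave wide intervals.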
